A study of Mus musculus with 6 samples.

Results

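Spp1, Gpnmb, Lgals3 and Cd44 are 4 of the 55401 genes in a table of RNA-seq read counts from mouse bone marrow stromal/stem cells. They were chosen by symbol, with their levels in the 2 genotypes already known, and each symbol matched a single gene. All 4 were among the 13184 genes that passed the filter on low counts. Both genotypes of the series were used, Nrf2 knockout with 3 libraries and WT with 3 libraries. Nrf2, encoded by Nfe2l2, is a transcription factor that acts on antioxidant genes. All cells of both genotypes were cultured in DMEM containing serum and antibiotics, and no other treatment is labelled. The knockout allele, the strain and the age of the mice, and whether libraries are separate animals or cultures, are not given in the sources used here. Each p-value below therefore measures a spread among libraries that could be technical in part. The series compares the genotypes, and the question followed here is which cell type the abundant Spp1 RNA tracks from library to library.

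Spp1 encodes osteopontin, a secreted, heavily phosphorylated protein of bone matrix that binds integrins and CD44 and is made by osteoblasts, osteoclasts and activated macrophages. Gpnmb encodes a membrane glycoprotein of lysosomes and melanosomes, also called osteoactivin, whose shed part can bind CD44 and which macrophages make under lysosomal stress. Lgals3 encodes galectin-3, a lectin that binds galactose-bearing sugars and was first described as the macrophage antigen Mac-2. Cd44 encodes a widely expressed surface receptor for hyaluronan and osteopontin, used as a marker of cultured stromal cells and also present on macrophages.

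The promoter windows of Spp1 and Gpnmb, the pair of members with the most reads, are shown because both hold the RUNX core AACCACA. Each window runs 300 bases from upstream of the RefSeq start site to just past it (RefSeq, build GRCm38.p6), and capitals mark motif matches. The Spp1 window is chr5:104434861-104435160 on the plus strand, and the Gpnmb window is chr6:49036268-49036567 on the plus strand.
Spp1: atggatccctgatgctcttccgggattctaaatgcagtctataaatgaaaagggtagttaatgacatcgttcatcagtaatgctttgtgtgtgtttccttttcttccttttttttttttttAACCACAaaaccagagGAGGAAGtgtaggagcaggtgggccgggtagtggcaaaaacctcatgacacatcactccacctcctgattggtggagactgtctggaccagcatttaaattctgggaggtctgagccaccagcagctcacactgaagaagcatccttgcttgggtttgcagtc
Gpnmb: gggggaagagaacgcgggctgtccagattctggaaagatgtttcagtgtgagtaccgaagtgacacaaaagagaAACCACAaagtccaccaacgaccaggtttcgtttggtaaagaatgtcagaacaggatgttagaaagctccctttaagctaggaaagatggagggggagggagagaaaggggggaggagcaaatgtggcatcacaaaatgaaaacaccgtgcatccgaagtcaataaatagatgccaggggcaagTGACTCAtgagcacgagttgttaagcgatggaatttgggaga
In the Spp1 window, AACCACA began 129 bases upstream of the start site and GAGGAAG, a PU.1-type core, began 113 bases upstream. In the Gpnmb window, AACCACA began 176 bases upstream and an AP-1 match, TGACTCA, began at base 8 after the start site. On either strand, AACCACA was found in 5.27% of 32851 such windows, GAGGAAG in 13.6% and TGANTCA in 7.81%. The other 3 patterns, TGACNNNGC (antioxidant response element), CACGTG (E-box) and TCATGTG (MITF), had no match in any of the 4 members' windows, and were found in 12.4%, 7.15% and 3.77% of all windows. The Cd44 window held GAGGAAG on the opposite strand, beginning 221 bases upstream, and the Lgals3 window held none of the 6 patterns. The RefSeq start site of that Lgals3 window lies 6109 bases from the start of the gene's listed span, against at most 28 bases for the other members. A match describes letters only, and the patterns were chosen with these sequences in view.

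The libraries held 20069243 to 21235480 counts in knockout and 18381114 to 21323839 counts in WT, so that 3 counts correspond to 0.141 to 0.163 CPM (counts scaled to a common library size). Nfe2l2 had 118, 149 and 118 counts in knockout libraries, against 3591, 3082 and 3628 counts in WT libraries, which fits the labels in all 6. The WT libraries were far less alike than the knockout libraries. A list of 20 stromal matrix genes summed to 860, 918 and 892 CPM in the knockout libraries, against 8070, 21280 and 31884 CPM in WT replicates 1, 2 and 3. Macrophage RNA was abundant in every library: 20 macrophage genes summed to 31189, 32436 and 30154 CPM in knockout, against 34553, 27648 and 24061 CPM in WT, of which 46.2% was Lyz2; without Lyz2 the sum was 1.40 times higher in knockout. Against the label of stromal/stem cells, the stromal surface marker Thy1 had 0, 1 and 1 counts in knockout libraries, against 48, 154 and 285 counts in WT libraries. Every result on WT therefore rests on 3 libraries that differ in stromal matrix RNA, and values per library are given throughout. In such bulk RNA, fewer cells of a type and less RNA per cell cannot be told apart.

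Spp1 was the most abundant transcript of the table in all 6 libraries, both by reads and per length. It spans chr5:104435118-104441050 on the plus strand (mm10; ENSMUSG00000029304). It had 822937, 789101 and 743549 counts in knockout libraries, against 715458, 530154 and 455801 counts in WT libraries. Its level in FPKM, the authors' measure of fragments per exon length and library size, was 24306, 22548 and 22481 in knockout, against 22654, 17501 and 12970 in WT. WT replicate 1 lay within the knockout range and WT replicate 3 lay far below it, so the genotypes overlapped. These counts were 4.01%, 3.72% and 3.70% of all counts in knockout and 3.73%, 2.88% and 2.14% in WT. At this depth counting error was small: the exact 95% binomial (Clopper-Pearson) interval was 3.997% to 4.014% in knockout replicate 1 and 2.131% to 2.144% in WT replicate 3, and such intervals cover counting error only. Means were 23112 ± 1035 FPKM in knockout and 17709 ± 4845 FPKM in WT (SD, n = 3 each).

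The edgeR log2 fold change of Spp1, knockout over WT, was 0.42 (SE 0.27), or 1.33-fold, and it is given as a description because Spp1 was chosen with this contrast known. The WT spread decided its size. On CPM scaled by TMM factors, the knockout mean was 0.989 of WT replicate 1, 1.38 times WT replicate 2 and 1.94 times WT replicate 3. Leaving out WT replicate 1 gave a log2 fold change of 0.70, and leaving out WT replicate 3 gave 0.20. The highest WT library had 1.96 times the CPM of the lowest, against 1.09 times among knockout libraries. A short transcript of unsettled type, Gm42793, overlaps Spp1 on the same strand and was listed at 114 to 145 counts in knockout and 119 to 192 counts in WT, far below the counts of Spp1.

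Gpnmb was higher in every knockout library than in any WT library. It spans chr6:49036546-49070929 on the plus strand (ENSMUSG00000029816), with 429754, 441503 and 402651 counts in knockout libraries, against 262102, 216281 and 176773 counts in WT libraries. Its FPKM was 3211, 3192 and 3080 in knockout, against 2100, 1806 and 1273 in WT. The knockout libraries were nearly level, and WT replicate 3 was the lowest of all 6. The FPKM means were 3161 ± 70.8 in knockout and 1726 ± 419 in WT (SD, n = 3 each), and the log2 fold change was 0.91 (SE 0.24), or 1.87-fold. Among all genes Gpnmb ranked 11 by FPKM in each knockout library and 15, 17 and 21 in WT replicates 1, 2 and 3. The knockout mean CPM was 1.46 times that of WT replicate 1 and 2.71 times that of WT replicate 3.

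Lgals3 showed nearly the same difference as Gpnmb with a wider WT spread. It spans chr14:47367751-47386160 on the plus strand (ENSMUSG00000050335), with 146974, 162254 and 136944 counts in knockout libraries, against 101432, 71662 and 54145 counts in WT libraries. Its FPKM was 3850, 4112 and 3673 in knockout, against 2849, 2098 and 1367 in WT. All knockout libraries lay above all WT libraries, and WT replicate 1 was the nearest to them. The FPKM means were 3878 ± 221 in knockout and 2105 ± 741 in WT (SD, n = 3 each), and the log2 fold change was 0.91 (SE 0.29), or 1.88-fold. The knockout mean CPM was 1.32 times that of WT replicate 1 and 3.10 times that of WT replicate 3, the widest span of the 4 members.

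Cd44, the receptor of the group, was far lower than its ligands and the steadiest. It spans chr2:102811141-102901665 on the minus strand (ENSMUSG00000005087), with 8653, 9181 and 8781 counts in knockout libraries, against 6130, 6586 and 7578 counts in WT libraries. Its FPKM was 62.2, 63.8 and 64.6 in knockout, against 47.2, 52.9 and 52.5 in WT. The genotypes did not overlap, and the WT libraries differed little among themselves. The FPKM means were 63.5 ± 1.23 in knockout and 50.8 ± 3.16 in WT (SD, n = 3 each), and the log2 fold change was 0.37 (SE 0.08), or 1.29-fold. In CPM the highest WT library was 1.05 times the lowest, against 1.86 times for Gpnmb and 2.34 times for Lgals3. The knockout mean CPM was 1.30, 1.26 and 1.32 times that of WT replicates 1, 2 and 3.

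**Figure D1:**
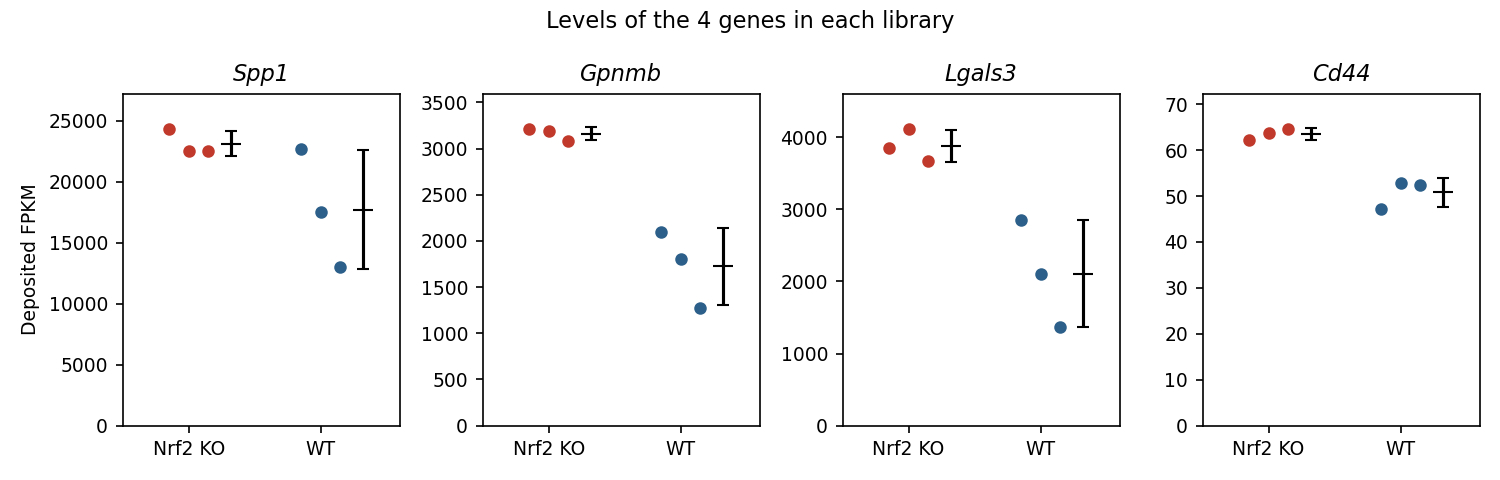
Deposited FPKM of Spp1, Gpnmb, Lgals3 and Cd44 (y axes from 0, a scale of its own for each gene) in the 3 Nrf2 knockout libraries (red) and the 3 WT libraries (blue, replicates 1 to 3 from left to right), with the mean and SD of each genotype in black. Spp1 of WT replicate 1, at 22654 FPKM, lies among the knockout libraries, while the other 3 genes do not overlap between genotypes.

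Thus 3 of the 4 members were higher in knockout without overlap between genotypes, which held for 24.9% of tested genes (50.9% with either direction). The members were chosen on this contrast, so nothing is read from that count. All 4 log2 fold changes lay above most of the 13184, at percentile 83.8 for Spp1, 94.6 for Gpnmb, 94.6 for Lgals3 and 81.6 for Cd44. Per length, the order was Spp1, Lgals3, Gpnmb and Cd44 in each of the 6 libraries. Together the 4 genes took 6.86%, 6.60% and 6.44% of the counts in knockout libraries, against 5.66%, 4.49% and 3.26% in WT libraries.

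The balance among the members is given as a description, because they were chosen with the contrast of genotypes known. The FPKM ratio of Spp1 to Gpnmb was 7.57, 7.06 and 7.30 in knockout, against 10.8, 9.69 and 10.2 in WT. Although each of these genes varied nearly as widely as the other across WT libraries, their ratio did not, and it was lower in every knockout library. The ratio of Spp1 to Lgals3 was 6.31, 5.48 and 6.12 in knockout, against 7.95, 8.34 and 9.49 in WT, again without overlap. The share of gene pairs without overlap was not computed, so nothing is read from it. Knockout means were 0.715 of the WT mean for Spp1 to Gpnmb and 0.695 of it for Spp1 to Lgals3. The ratio of Lgals3 to Gpnmb overlapped, at 1.23 ± 0.0536 in knockout and 1.20 ± 0.145 in WT (SD, n = 3 each). So did the ratio of Spp1 to Cd44, at 364 ± 23.4 in knockout and 353 ± 118 in WT (SD, n = 3 each), with a range from 247 in WT replicate 3 to 480 in WT replicate 1.

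Across the WT libraries, Spp1 varied with macrophage RNA and opposite to matrix RNA. From WT replicate 3 to WT replicate 1, Spp1 was higher by 1.96 times, while the matrix sum was lower, at 0.253 of its value in replicate 3. All 20 macrophage genes and none of the 20 matrix genes were higher in WT replicate 1 than in WT replicate 3, as were 46.1% of all tested genes. Bone-forming cells had little measurable RNA: the 15 osteoblast genes other than Spp1 summed to 12.8, 13.3 and 15.3 CPM in knockout, against 28.4, 32.2 and 41.5 CPM in WT. Bglap2 and Sost had no reads in any library, and Alpl, the alkaline phosphatase of osteoblasts, had 0 counts over the knockout libraries and 3 over the WT libraries. That sum, 43.3% of it Runx2, was lowest where Spp1 was highest within WT, but not every gene in it ran that way. The bone matrix genes Ibsp, at 4.27, 0.954 and 0.525 CPM, and Dmp1, at 4.44, 0.371 and 0.0875 CPM in WT replicates 1, 2 and 3, had the order of Spp1. Osteoclast genes summed to 1647, 1672 and 1587 CPM in knockout, against 1091, 1176 and 1224 CPM in WT. Within WT the osteoclast genes were divided: of 10 tested, 3 had the order of Spp1 (Atp6v0d2, Tnfrsf11a and Clcn7) and 6 the opposite order, among them Acp5, Ctsk and Mmp9. The share of all tested genes with either order was not computed, so these counts describe the list only.

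**Figure D2:**
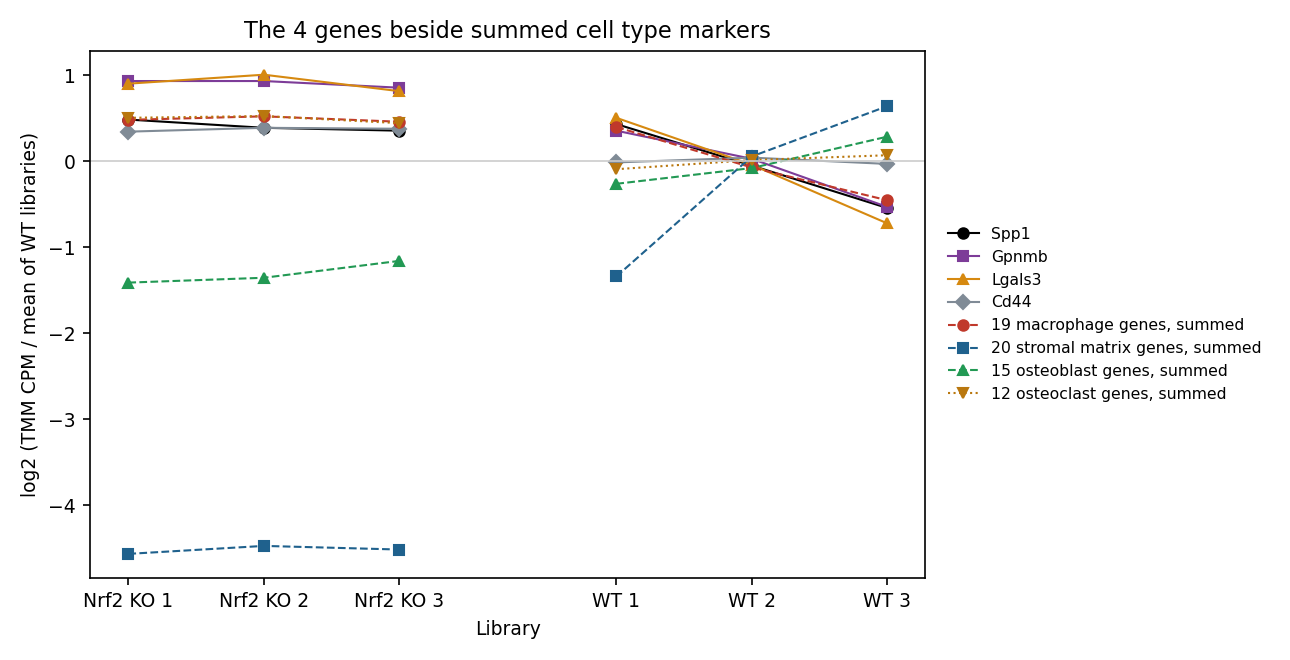
Log2 of each library's TMM-scaled CPM over the mean of the WT libraries (y axis), for the 4 genes (solid lines) and for summed marker lists (broken lines), in each library (x axis). Lines join the values of 1 quantity and imply no order among libraries. Spp1, Gpnmb and Lgals3 lie with the 19 macrophage genes in WT, from high in replicate 1 to low in replicate 3, and matrix genes run the other way, from 8070 to 31884 CPM. Cd44 is level across WT, where the highest library is 1.05 times the lowest, and higher in every knockout library.

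For a yardstick, each member was set over the summed CPM of the macrophage genes in the same library. This is a ratio of reads, not of molecules. Lyz2 made up 46.2% of the 20-gene sum, so a single gene set much of it, and the sum of the remaining 19 was used, a choice made after seeing the values. That sum also rested much on a few genes, with Ctss at 21.4% of it, Mpeg1 at 18.3% and Cd68 at 10.7%. The log2 fold change, knockout over WT, was -0.30 for Lyz2, -0.27 for Itgam and above 0 for each of the other macrophage genes. The 19 genes summed to 18751, 19290 and 18465 CPM in knockout, against 17699, 12770 and 9803 CPM in WT, 1.40 times higher in knockout by the means and without overlap. Over those 19 genes Spp1 stood at 2.18, 1.98 and 2.02 in knockout, against 2.21, 2.20 and 2.04 in WT. The genotypes overlapped, with means of 2.06 ± 0.104 in knockout and 2.15 ± 0.0995 in WT (SD, n = 3 each), and the highest WT value was 1.09 times the lowest. With Lyz2 in the sum the ratio was 1.31, 1.18 and 1.24 in knockout, against 1.13, 1.02 and 0.829 in WT, which did not overlap. Over the matrix sum, Spp1 ranged from 41.6 to 47.4 in knockout and from 0.626 to 4.86 in WT.

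Gpnmb and Lgals3 remained higher in knockout on this yardstick. Gpnmb stood at 1.14, 1.11 and 1.09 times the 19-gene sum in knockout, against 0.811, 0.897 and 0.789 in WT. Lgals3 stood at 0.389, 0.407 and 0.372 in knockout, against 0.314, 0.297 and 0.242 in WT. Neither overlapped, and the knockout means were 1.34 times the WT mean for Gpnmb and 1.37 times for Lgals3. The share of all tested genes without overlap on this yardstick was not computed. Both members were chosen with this contrast known, so nothing is read from the lack of overlap. Cd44 went the other way within WT, at 0.0229, 0.0230 and 0.0239 in knockout, against 0.0190, 0.0273 and 0.0338 in WT replicates 1, 2 and 3, and it overlapped. When all libraries were scaled to those 19 genes in edgeR, the log2 fold changes were -0.06 (SE 0.05) for Spp1, 0.42 (SE 0.06) for Gpnmb, 0.45 (SE 0.10) for Lgals3 and -0.20 (SE 0.21) for Cd44, so the sign turned for Spp1 and Cd44. The median of all tested genes was then -0.57, against -0.01 with TMM factors.

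**Figure D3:**
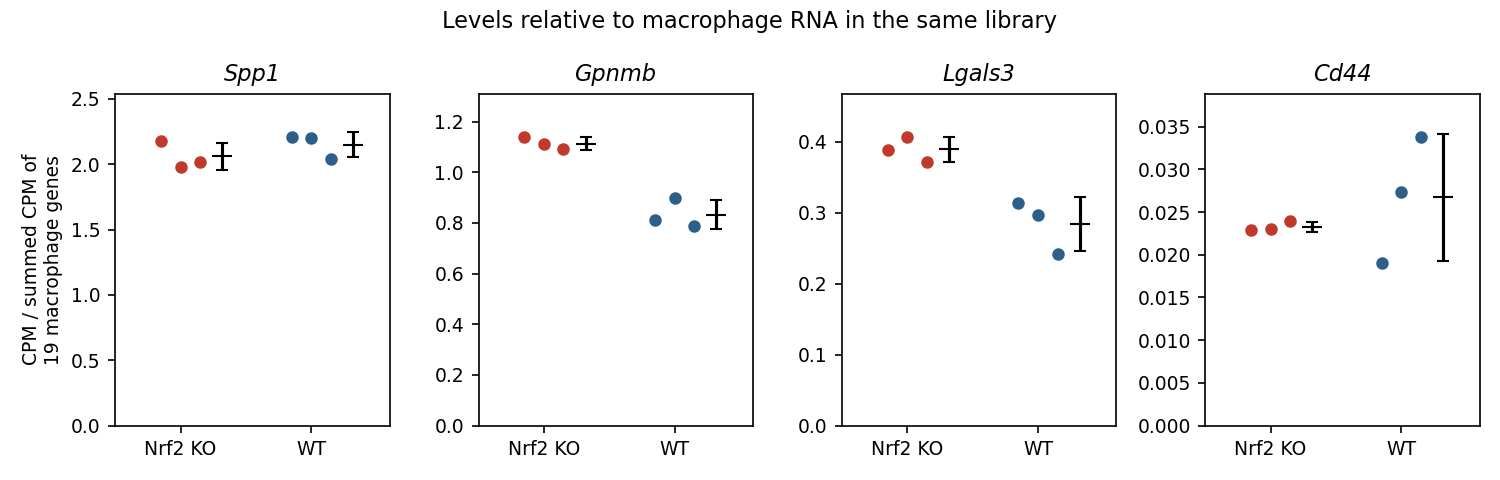
CPM of each of the 4 genes over the summed CPM of 19 macrophage genes in the same library (y axes from 0), in knockout (red) and WT (blue, replicates 1 to 3 from left to right), with the mean and SD in black. Spp1 lies near 2 in all 6 libraries, Gpnmb and Lgals3 are higher in every knockout library, and Cd44 spreads from 0.0190 to 0.0338 in WT.

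Macrophage genes did not all give the same answer when used alone. Over each of the 20 in turn, the ratio of Spp1 in knockout to its ratio in WT had a median of 0.948 and was above 1 for 7 genes. It ran from 0.241 over Mrc1, the mannose receptor, to 1.67 over Lyz2, lysozyme. Mrc1 itself had 671, 627 and 711 CPM in knockout, against 126, 116 and 117 CPM in WT. Over Ctss, the cysteine protease cathepsin S, Spp1 stood at 11.7, 10.6 and 11.1 in knockout, against 8.32, 8.63 and 8.75 in WT. Over the 3 genes with the largest shares of the 19-gene sum, the ratio in knockout relative to WT went both ways. It was 1.30 over Ctss, 0.843 over Mpeg1 and 0.788 over Cd68. The same median was 1.32 for Gpnmb and 1.35 for Lgals3, each above 1 over 17 of the 20 genes, and 0.869 for Cd44, above 1 over 4.

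Within WT, the ratio of Spp1 to a macrophage gene was steady for most of the list. A ratio was counted as steady when its highest WT value was within 1.25 times its lowest. This held for 14 of the 20 macrophage genes, or 70.0%, and for 5.37% of 13160 tested genes with reads in every WT library. It held for 10 of 17 genes of lipid-laden macrophages and for 2 of 10 osteoclast genes, Atp6v0d2 and Clcn7. It held for 1 of 4 endothelial genes, Vwf, and for none of 19 matrix, 6 osteoblast, 10 smooth muscle or 9 neutrophil and mast genes. Steady ratios were not confined to macrophage lists. They were found for 7 of 15 MITF/TFE factors and lysosomal targets (described below), among them Ctsd, Ctsa and Hexa. Of 5 osteopontin enzymes 1 was steady (Fam20c), as were 1 of 6 galectins and partners (Mgat5), 1 of 15 hyaluronan and CD44 genes (Ezr) and none of 8 integrin subunits. Gpnmb was steady against 13 of the 20 macrophage genes (6.01% of all genes) and Lgals3 against 3 (1.69%). Lgals3 was steady against 8 of 17 lipid-laden genes, among them Fabp5 and Trem2. Cd44 was steady against 3 macrophage genes, Lyz2, Cd14 and Mrc1, and against 41.9% of all genes. These counts describe the same 3 libraries, and no test was made on them.

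**Figure D4:**
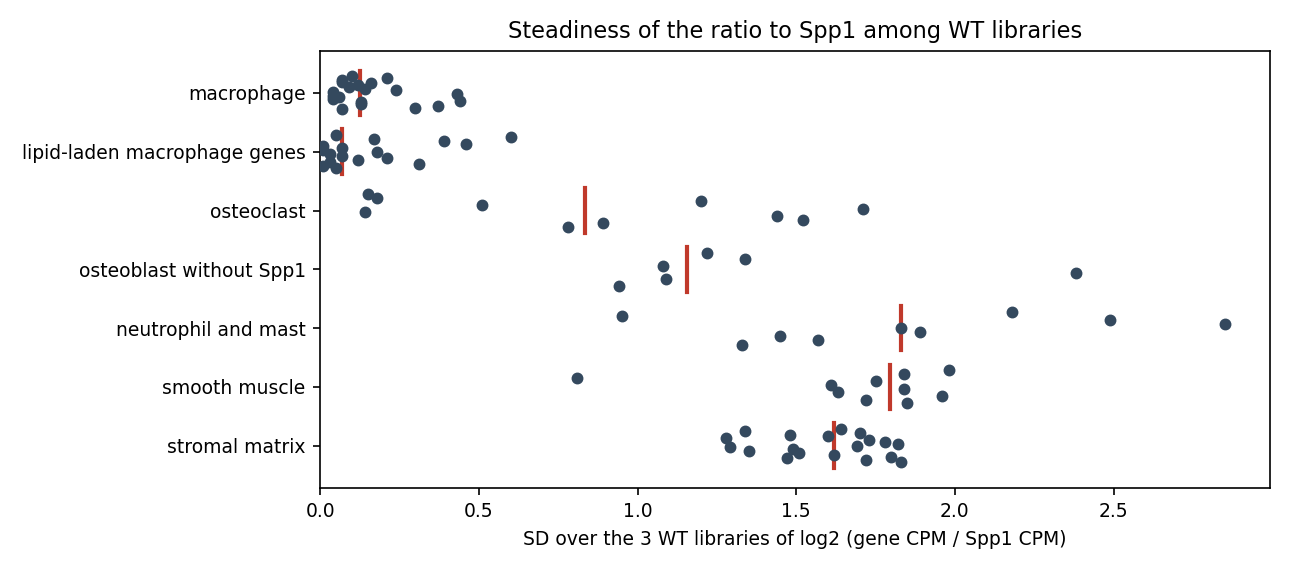
SD over the 3 WT libraries of log2 of a gene's CPM over that of Spp1 (x axis), for the genes of 7 lists (rows); each point is a gene with reads in all WT libraries and the red line is the list's median. Points near 0 vary with Spp1: the medians are 0.13 for macrophage genes and 0.07 for lipid-laden macrophage genes, against 0.83 for osteoclast, 1.16 for osteoblast and 1.62 for matrix genes.

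Markers of other cell types moved with genotype too, and their part in the members' differences was not tested. In the tests that follow, a gene is called at an edgeR adjusted p under 0.05, which held for 32.9% of tested genes, 14.1% as higher and 18.7% as lower in knockout. All 19 tested matrix genes were lower (median log2 fold change -6.25, against -0.01 for all tested genes), and so were all 10 smooth muscle genes (median -7.72). Of macrophage genes 8 of 20 were higher and none lower (median 0.51). Leaving out WT replicate 1 made that count 17, WT replicate 2 made it 2, any of the knockout libraries made it 3, and the replicate number as a block made it 11. Scaled to the 19 macrophage genes themselves, 3 were higher and 3 lower. The sum of those same genes sets that scale, so these counts cannot show whether macrophage RNA differed. Of osteoblast genes other than Spp1, 5 of 6 tested were lower, or 2 without knockout replicate 1 and 3 without knockout replicate 2. Of osteoclast genes 1 of 10 was higher, Atp6v0d2, and 3 were lower; without WT replicate 1 the counts were 4 and 5, and 3 were higher without WT replicate 3.

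Neutrophil and mast genes summed to 289, 332 and 292 CPM in knockout, against 47.5, 40.4 and 141 CPM in WT, with 8 of 9 tested higher and 1 lower. The gene lower was Mcpt8 (log2 fold change -6.75, edgeR adjusted p = 0.0037), and the mast cell genes Cpa3 and Kit did not pass the filter. The number higher was 4, 2 and 3 without knockout replicates 1, 2 and 3, 4 when scaled to the 20 macrophage genes and 2 when scaled to the 19. Endothelial genes summed to at most 63.2 CPM in knockout and 36.4 CPM in WT, with 2 of 4 higher, or 1 when scaled to the 19 macrophage genes. Lymphocyte genes reached 10.5 CPM in knockout and 13.4 CPM in WT, with 1 of 2 tested lower, and with replicate number as a block another was higher. The erythroid and megakaryocyte sum was 99.9% Pf4, which was not called (0 of 1 tested), though it was called higher without WT replicate 1 (edgeR adjusted p = 0.023). Chondrocyte and adipocyte genes reached 0.351 CPM in knockout and 2.49 CPM in WT, with the 1 tested gene lower.

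The genes nearest each member were found by the SD, over the 6 libraries, of log2 of a gene's CPM over the member's, among 2158 protein-coding genes with a mean of at least 20 FPKM. A smaller SD means a more alike pattern, and the 6 points of each gene come from the same 6 libraries, 3 of each genotype. For Spp1 the 5 nearest were Galns (0.037), Psap (0.042), Plek (0.047), St6galnac4 (0.058) and Rab7b (0.061), against a median of 0.36 over all candidates. For Gpnmb they were Id2 (0.043), Pacc1 (0.050), Gnpda1 (0.054), Tmem106a (0.057) and Rgs2 (0.059), against 0.54. For Lgals3 they were Fabp5 (0.075), Folr2 (0.084), Blnk (0.091), Tmem106a (0.093) and Tnfsfm13 (0.098), against 0.61. For Cd44 they were Naa50 (0.022), Idh3g (0.035), Pigt (0.041), Hspa5 (0.044) and Ehmt2 (0.049), against 0.24. Over the WT libraries alone, 1 of the 5 was again among the nearest 5 for Spp1, Gpnmb and Lgals3 each, and none for Cd44. Between members the SD was 0.27 for Spp1 with Gpnmb, 0.31 for Spp1 with Lgals3 and 0.12 for Gpnmb with Lgals3. Over WT alone it was 0.08, 0.13 and 0.17 for the same pairs, and from 0.44 to 0.61 for Cd44 with the other 3.

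The relatives of osteopontin did not share its level. Spp1 belongs to the SIBLING family of bone and tooth matrix proteins. Of the 4 other members listed, Dspp had no reads and Mepe had 2 counts over WT and none over knockout. Ibsp, bone sialoprotein, had 3, 3 and 4 counts in knockout, against 78, 18 and 12 counts in WT, and was lower (log2 fold change -3.48, edgeR adjusted p = 0.029). That call was lost without any of the knockout libraries, at an adjusted p of up to 0.10. Dmp1, a matrix protein of osteocytes, had 72, 88 and 74 counts in knockout, against 81, 7 and 2 counts in WT, and was not called (log2 fold change 1.26, edgeR adjusted p = 0.38). Its WT counts, like those of Ibsp and Spp1, were highest in replicate 1. Without that library Dmp1 was called higher (log2 fold change 4.12, edgeR adjusted p = 3.2e-05). Ibsp and Dmp1 are the only tested relatives, with a median of -1.11.

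Of the 8 tested integrin subunits that form osteopontin receptors, 1 was higher and 4 were lower (median -0.43). Itgb1, the beta subunit common to many of them, had 748, 730 and 736 CPM in knockout, against 820, 1121 and 1342 CPM in WT. It was highest where Spp1 was lowest within WT. It was lower with an edgeR adjusted p of 0.047, which was 0.054 with replicate number as a block, and 10 of 17 alternatives ended the call, including those without any library other than WT replicate 1 (adjusted p up to 0.14). Itga5, which pairs with it as the fibronectin receptor, fell by 1.46 on the log2 scale (edgeR adjusted p = 0.0025). Itga8 fell by 1.73 from few reads (edgeR adjusted p = 0.017), a call lost without knockout replicate 2, knockout replicate 3 or WT replicate 2 (adjusted p up to 0.084). Itga9, a subunit that binds thrombin-cut osteopontin, was higher by 0.48 with TMM factors (edgeR adjusted p = 0.0064). Scaled to the 19 macrophage genes, its log2 fold change was -0.09 and not called, beside a median of -0.57 for all tested genes. The number of subunits lower was 1 or 2 without any library other than WT replicate 1, and 5 without that library. Scaled to the 20 macrophage genes none was higher and 2 were lower.

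Of the 5 tested enzymes that modify osteopontin, none was higher and 2 were lower (median -0.29). Mmp9, a gelatinase that cuts it, had 22.2, 20.7 and 17.2 CPM in knockout, against 44.7, 161 and 230 CPM in WT (log2 fold change -2.86, edgeR adjusted p = 0.0086). Its WT order was the reverse of that of Spp1. Mmp12, macrophage elastase, had 1994, 1981 and 1782 CPM in knockout, against 3753, 1703 and 1042 CPM in WT, the order of Spp1 with a wider span. It was not called (log2 fold change -0.17, edgeR adjusted p = 0.78), but it was called higher without WT replicate 1 (log2 fold change 0.49, adjusted p = 0.042). Tgm2, a transglutaminase that crosslinks osteopontin, fell by 0.29 (edgeR adjusted p = 0.046), which was 0.10 with replicate number as a block, and 8 of 17 alternatives ended the call, including those without WT replicate 2 or any of the knockout libraries (adjusted p up to 0.18). Acp5, a phosphatase that removes its phosphates, had a log2 fold change of 0.31 (edgeR adjusted p = 0.16). The number lower was 1 without WT replicate 2 or any of the knockout libraries and 3 without WT replicate 3, and 1 enzyme was higher without WT replicate 1 or WT replicate 3.

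Among other galectins and partners of galectin-3, 3 of 6 tested were higher and 1 was lower (median 0.46). Lgals3bp, a secreted glycoprotein that galectin-3 binds, had 353, 413 and 351 CPM in knockout, against 231, 223 and 194 CPM in WT (log2 fold change 0.78, edgeR adjusted p = 0.0027). It was not called when scaled to the 19 macrophage genes (log2 fold change 0.24). Lgals8, another galectin, was higher by 0.48 with TMM factors (edgeR adjusted p = 0.0026). Scaled to the 19 macrophage genes, its log2 fold change was -0.09 and not called. On that scale the median of all tested genes was -0.57. Lgals1, the most abundant other galectin, had 1231, 1496 and 1320 CPM in knockout, against 1203, 1212 and 1232 CPM in WT (log2 fold change 0.15, edgeR adjusted p = 0.32). It was level across WT, unlike Lgals3. Lgalsl, a galectin-like protein, fell by 2.60 (edgeR adjusted p = 0.0036). The number higher was 2 without any library other than WT replicate 1, 4 without that library, 1 when scaled to the 20 macrophage genes and 0 when scaled to the 19.

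Of 15 tested genes of hyaluronan and CD44, 3 were higher and 6 lower (median -0.19). Has2, the main hyaluronan synthase of stromal cells, had 2, 2 and 3 counts in knockout, against 177, 443 and 810 counts in WT (log2 fold change -7.56, edgeR adjusted p = 0.00099). Vcan, a proteoglycan that binds hyaluronan, fell by 6.71 (edgeR adjusted p = 0.0031), and Tnfaip6, which links proteins to hyaluronan, fell by 4.72 (edgeR adjusted p = 0.0045). These 3 were highest in WT replicate 3, as were matrix genes, whereas Cd44 was level across WT. Msn, moesin, which ties CD44 to the actin skeleton, had 804, 748 and 836 CPM in knockout, against 1009, 1060 and 1111 CPM in WT (log2 fold change -0.41, edgeR adjusted p = 0.017). That call was lost without WT replicate 2 or any of the knockout libraries (adjusted p up to 0.079). The number higher was 0 or 1 without any library other than WT replicate 1, 4 without that library and 0 when scaled to the 19 macrophage genes.

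Gpnmb is a known target of MITF and the related TFE factors, which also drive lysosomal genes. Of 15 such factors and targets 2 were higher and none lower (median 0.33). Mitf itself had 57.4, 51.5 and 54.8 CPM in knockout, against 66.4, 50.0 and 47.0 CPM in WT. Atp6v0d2, a proton pump subunit of macrophages and osteoclasts, had 622, 668 and 617 CPM in knockout, against 271, 168 and 115 CPM in WT (log2 fold change 1.78, edgeR adjusted p = 0.0047). It showed a larger difference than Gpnmb in the same direction, with the same order among WT libraries. Hexa, a lysosomal hexosaminidase, was higher by 0.68 (edgeR adjusted p = 0.039). That call was lost without WT replicate 2 or any of the knockout libraries (adjusted p up to 0.13). It was also lost when scaled to the 19 macrophage genes (log2 fold change 0.19, against a median of -0.57 for all tested genes). Atp6v1h, another pump subunit, missed the threshold (log2 fold change 0.48) at an edgeR adjusted p of 0.050 and passed at 0.025 with replicate number as a block. Ctsd, the protease cathepsin D and the most abundant of the list, had 13783, 14408 and 13064 CPM in knockout, against 16579, 12155 and 8749 CPM in WT (log2 fold change 0.14, edgeR adjusted p = 0.69). The number higher was 10 without WT replicate 1, 3 without WT replicate 3 and 1 without any other library. It was 4 when scaled to the 20 macrophage genes, and with the 19 it was 1, with 1 gene lower.

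Spp1, Gpnmb and Lgals3 are often high together in lipid-laden macrophages, and 17 other genes of such cells were listed. Of these 4 were higher and none lower (median 0.47). Fabp4, a fatty acid carrier, had 294, 341 and 277 CPM in knockout, against 126, 87.2 and 61.2 CPM in WT (log2 fold change 1.73, edgeR adjusted p = 0.0032). Abcg1, which exports cholesterol, was higher by 1.52 (edgeR adjusted p = 0.0021). Abca1, another cholesterol exporter, was higher by 0.44 with TMM factors (edgeR adjusted p = 0.016). Scaled to the 19 macrophage genes, its log2 fold change was -0.11 and not called, beside a median of -0.57 for all tested genes. The Abca1 call was lost without knockout replicate 1, knockout replicate 3 or WT replicate 2 (adjusted p up to 0.078). Apoe, the lipid carrier and the most abundant of the list, had 12244, 13692 and 12450 CPM in knockout, against 24659, 18662 and 15870 CPM in WT. Its log2 fold change was -0.62 (edgeR adjusted p = 0.052), opposite in sign to those of Gpnmb and Lgals3, and it was called lower under 9 of 17 alternatives, among them library totals (adjusted p = 0.018), scaling to the 20 macrophage genes (adjusted p = 0.00081) or the 19 (adjusted p = 9.9e-05), and the fits without WT replicate 1 or WT replicate 3 (adjusted p as low as 0.015). Scaled to the 19 macrophage genes, 4 of the list were higher and 4 lower, and DESeq2 called 7 higher and 1 lower. Leaving out WT replicate 1 gave 13 higher, and leaving out WT replicate 2, knockout replicate 1 or knockout replicate 3 gave 2.

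**Figure D5:**
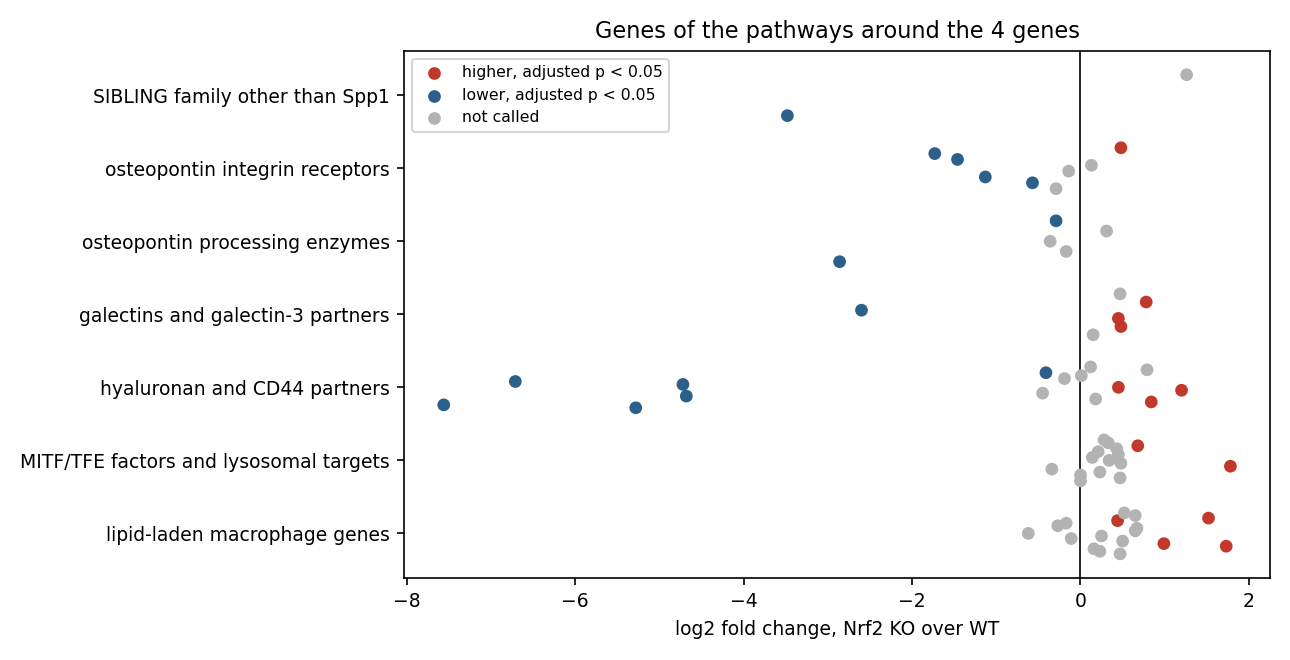
Log2 fold change, knockout over WT, from edgeR (x axis) for each tested gene of the 7 lists around the 4 genes (rows), coloured by the call at an adjusted p under 0.05. The largest differences are lower hyaluronan genes, down to -7.56 for Has2, and the higher calls reach 1.78 for Atp6v0d2.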

How the data were processed

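Messenger RNA libraries from total RNA of Nrf2 knockout and WT cells (3 each) were analysed from the table deposited by the authors, which gives raw read counts and FPKM per gene on mm10. HISAT2 2.0.1, HTSeq 0.6.1 and DESeq2 are listed, with no roles, in the submitters' processing notes; the strand setting and the handling of reads shared between genes are not given in the sources used here. The authors' deposited FPKM equals count over exonic length and library total, within 0.0050. GENCODE M21 held 99.5% of the IDs, 99.4% of those at the same start and end. Where a symbol was repeated (217 rows), the gene with the highest mean count was used.

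The 4 genes, the 10 marker lists, the 7 pathway lists and the tests were chosen with earlier results of these data known. Counts were fitted in R 4.3.3 with edgeR 4.0.16 (quasi-likelihood test, filterByExpr with a minimum count of 10, TMM factors, genotype as the only term) over 13184 genes, with Benjamini-Hochberg adjustment and a call at an adjusted p under 0.05. Standard errors were derived from each log2 fold change and its F statistic. No p is given for the 4 genes. The genes named are, for each pathway list, the 3 with the smallest p and the most abundant by FPKM, the 2 most abundant of each marker list, the 5 nearest each of the 4 genes, and Nfe2l2. Mitf, Thy1, Alpl, Mrc1, Itgam, Mpeg1, Cd68, Tnfrsf11a, Ctsk, Mcpt8, Cpa3, Kit, Gm42793, the genes at 0 and those listed as steady were picked with their values in view. Alternatives were relative log expression, library total, upper quartile and macrophage scaling, filters, DESeq2 1.42.0, limma 3.58.1 on log2(FPKM + 1) and log2(FPKM + 0.1), the replicate number as a block, and leaving out each library. Scaling to the macrophage list without Lyz2 was added after the data were seen. Simulated counts were used to check the code.

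Same-numbered libraries of the 2 genotypes deviated together: across 6394 genes, their deviations from the genotype means had r = 0.39, 0.29 and 0.19 for numbers 1, 2 and 3, against -0.33 to 0.17 for other pairs. The numbers come from the labels, which do not say what they mark. Replicates differed by more than sampling noise (chi-square per degree of freedom 3.24 to 8.26 in knockout and 33.19 to 161.57 in WT, for genes of 20 or more counts in a pair).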

Additional observations from a re-analysis of the deposited data

How the results depend on the processing

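Of the 4 log2 fold changes, those of Gpnmb and Lgals3 stayed above 0 under all 17 alternatives, from 0.42 to 1.13 and from 0.45 to 1.26. Spp1 ran from -0.06 to 0.70 and Cd44 from -0.20 to 0.39, and both were below 0 only with the macrophage list without Lyz2 as the scale, an alternative chosen after seeing the data. That scaling gave -0.06 for Spp1, 0.42 for Gpnmb, 0.45 for Lgals3 and -0.20 for Cd44. It called 207 of the 13184 tested genes higher and far more of them lower. Beside that table-wide shift, it called 5 pathway genes higher and 22 lower, and 3 macrophage genes higher and 3 lower. It also turned Ctss to -0.44, Itga9 to -0.09, Lgals8 to -0.09, Ctsd to -0.35 and Abca1 to -0.11, against a median of -0.57 for all genes. Each of these was called in the main fit or with that scaling. With a call in neither, it turned Acp5 to -0.31, Pf4 to -0.39, Lgals1 to -0.43, Pecam1 to -0.06 and Atp6v1h to -0.03. Scaling to the whole macrophage list gave 0.22 for Cd44, 910 genes higher and 1 macrophage gene lower (median of all genes -0.16), and DESeq2 also called 1 macrophage gene lower. Cd44 was 0.32 with library totals, with a mean FPKM of at least 5 and with limma at either pseudocount. The FPKM filter, which tests fewer genes, gave 982 genes higher, 1037 lower and 6 pathway genes lower. Limma gave 1506 genes lower with a pseudocount of 1 and 1564 with 0.1, and 9 pathway genes lower with each. Mmp12 ran from -0.56 with the macrophage list without Lyz2 as the scale to 0.49 without WT replicate 1, and was -0.51 without WT replicate 3.

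Leaving out each library gave 0.20 to 0.70 for Spp1, 0.70 to 1.13 for Gpnmb, 0.65 to 1.26 for Lgals3 and 0.35 to 0.39 for Cd44. It gave 875 to 3188 genes higher (3188 without WT replicate 1) and 1616 to 3713 lower, 6 to 33 pathway genes higher and 8 to 17 lower of 67, and 2 to 17 macrophage genes higher. With the replicate block the members' values were 0.47, 0.95, 0.99 and 0.37 in the order above. The block gave 14 pathway genes higher and 12 lower, against 13 and 14 without it. Among the pathway and marker genes named by smallest p or abundance, it changed the calls of Itgb1, Tgm2, Atp6v1h and the lymphocyte gene Cd79b. With the block 2 osteoclast genes were called higher, against 1 without it, and 11 macrophage genes, against 8. Of the 5 genes nearest each member over 6 libraries, 1, 1, 1 and 0 were among the nearest 5 over WT alone for Spp1, Gpnmb, Lgals3 and Cd44. For the other named genes, 606 alternative values kept the call or its absence, 25 gained it and 49 lost it. A further 6 changed sign with a call in the main fit or the alternative. Among the 606, some values changed sign with a call in neither, such as Mmp12 at 0.03 with the block, against -0.17 without it. The cause of these shifts was not tested. With 3 libraries a genotype and WT libraries that differ in stromal matrix RNA, the difference seen for Spp1 is within its own WT spread.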
